A study of Arabidopsis thaliana with 46 samples.

Results

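The 26S proteasome subunit genes of Arabidopsis thaliana were followed as 43 genes, taken by gene ID from the count files: 21 genes of the 20S core particle, of which 11 encode alpha-type (PA) and 10 beta-type (PB) subunits, and 22 genes of the 19S regulatory particle, of which 10 encode ATPases (RPT) and 12 non-ATPase subunits (RPN). They were 43 of the 38194 gene IDs with a row in any library. All 43 had counts in all 46 libraries and all 43 passed the filter on low counts in each experiment. The choice used gene identity and no measured value.

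The 26S proteasome is the large ATP-dependent protease that degrades proteins tagged with ubiquitin chains, in the cytosol and the nucleus. Its 20S core is a barrel of stacked rings, in which alpha-type subunits form the outer gate and beta-type subunits form the inner chamber. The peptide bonds are cut by the beta1 subunit PBA1, the beta2 subunits PBB1 and PBB2 and the beta5 subunit PBE1. The 19S particle caps the core: a ring of RPT ATPases unfolds the substrate and threads it into the core, while RPN subunits bind ubiquitin (RPN10, RPN13) or remove it. In plants much hormone signaling, including that of auxin, jasmonate and gibberellin, runs through proteins that the proteasome destroys. Many subunits are encoded by a pair of near-identical genes, and the 43 genes hold 11 such pairs.

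The 46 libraries were poly(A) RNA-seq libraries of Col-0 root material in 14 groups, from 3 experiments that were quantified and scaled separately. In the CHX experiment, sorted root protoplasts carried TGA4, a bZIP transcription factor fused to the glucocorticoid receptor, or an empty vector (EV). They received dexamethasone (DEX), which lets the fusion enter the nucleus, with (pChx) or without (mChx) cycloheximide (CHX), a blocker of translation, in groups of 3 libraries; the label gives nitrogen as their treatment with no dose. In the N-dose experiment, TGA4 and EV protoplasts, all given 35 µM CHX and 10 µM DEX, received 1 of 3 supplies, again in 3 libraries a group: 0N, with KCl alone at 20 mM, 5N, with potassium nitrate at 5 mM, or 60N, with potassium nitrate and ammonium nitrate at 20 mM each. In the third experiment, protoplasts (per the methods, EV-carrying and sorted) and whole roots received 0N or 60N with neither CHX nor DEX by the labels, in groups of 4 libraries. The plants, 10 days old by the labels, had been raised on 1 mM KNO3, those for root libraries in liquid culture and those for protoplasts on vertical plates, so that growth format and tissue cannot be told apart. In the TARGET assay, wells of the same vector were split after transfection, so that vector and transfection cannot be told apart, and p-values measure the spread between these libraries.

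The libraries held 7835278 to 16214169 counts in the N-dose experiment, 2397664 to 8177924 in the CHX experiment and 9677719 to 17478925 in the protoplast and root experiment. EV at 5N, replicate 3, stood apart from the other 17 N-dose libraries on the second principal component, and EV without CHX, replicate 2, did so in the CHX experiment. Levels are given in CPM, the depth-scaled count on the TMM-adjusted library total, and a change was called at an adjusted p under 0.05 in edgeR's quasi-likelihood test, adjusted over all genes tested. Of 10 root cell-type markers, all were counted in protoplasts and in roots. Root-hair markers (EXPA7 and COBL9) were nearly absent from protoplasts of the third experiment, at 0.196 to 0.813 CPM summed in protoplasts at 0N, against 16.1 to 28.5 CPM in roots at 0N. In the CHX experiment they summed to 1.95 to 12.1 CPM in TGA4 and 0.394 to 9.70 CPM in EV with CHX, and to 13.5 to 18.5 CPM in TGA4 and 3.70 to 10.6 CPM in EV without it. The phloem marker went the other way in the third experiment, at 44.9 to 55.9 CPM in protoplasts and 12.2 to 15.7 CPM in roots at 0N. Of the 10 markers 7 were called lower and 2 higher in protoplasts at 0N.

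Summed over the 43 genes, proteasome transcripts were lower with CHX than without it and lower in protoplasts than in roots. In TGA4 protoplasts the sum was 3386 ± 56.7 CPM with CHX and 5375 ± 215 CPM without it, and in EV protoplasts it was 3722 ± 95.8 CPM with CHX and 5950 ± 454 CPM without it (SD, n = 3 each). In the third experiment it was 2365 ± 134 CPM in protoplasts and 3821 ± 141 CPM in roots at 60N, and 2254 ± 71.8 CPM in protoplasts and 4278 ± 123 CPM in roots at 0N (SD, n = 4 each). The sums also lay apart between TGA4 and EV with CHX, at 3326 to 3439 CPM in TGA4 and 3662 to 3832 CPM in EV, and between roots at 60N (3643 to 3961 CPM) and roots at 0N (4100 to 4381 CPM), and no test was run on them. In the N-dose experiment, where every library had CHX, the 6 group means reached from 1748 ± 131 CPM (TGA4 at 0N) down to 1602 ± 164 CPM (EV at 5N; SD, n = 3 each). Sums were not compared across experiments, since the tables are separate.

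**Figure D1:**
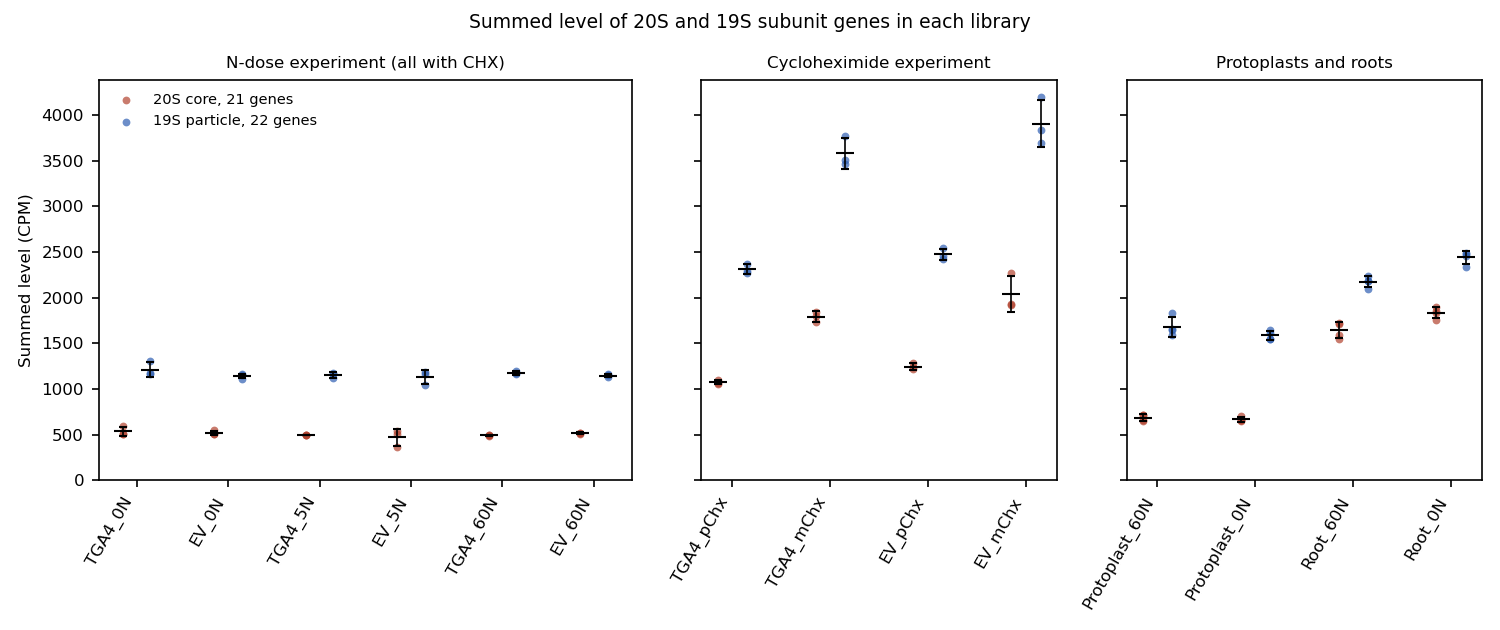
Summed CPM of the 20S core genes and of the 19S genes in each library, by experiment and group. Points are libraries and bars are group means ± SD. The CHX-treated and the protoplast groups lie below their counterparts for both parts of the complex, and EV at 5N, replicate 3, is the low 20S point (366 CPM) in the N-dose panel.

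Per kilobase of exon, the leading gene differed between materials. RPT1A, an ATPase subunit, was highest in protoplasts at 0N of the third experiment, at 75.0 ± 3.3 CPM per kb, ahead of RPT5A at 72.1 ± 1.3 (SD, n = 4), a gap within their spread. In roots at 0N the first ranks were PAG1 at 107.8 ± 6.6 CPM per kb, PBA1 at 105.6 ± 6.6 and PBF1 at 105.0 ± 5.6 (SD, n = 4), core subunits whose levels did not differ beyond their spread. In EV protoplasts without CHX the first was RPT3 at 244.5 ± 24.1 CPM per kb, followed by RPT1A at 183.3 ± 15.7 and RPT2a at 157.5 ± 15.4 (SD, n = 3). At the low end stood PAF2 in roots at 0N (7.13 ± 0.77 CPM per kb, n = 4) and RPT2b in EV protoplasts without CHX (21.8 ± 1.3, n = 3).

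Almost the whole set was lower with CHX. In EV protoplasts 38 of the 43 genes fell with CHX and none rose, where 48.1% of all genes tested were called and 24.5% were called lower. In TGA4 protoplasts 37 of 43 fell and none rose, where 45.9% of all genes tested were called and 22.6% were called lower. The EV and TGA4 comparisons share no library, and 36 genes fell in both. The median log2 fold change of the 43 genes was -0.63 in EV and -0.64 in TGA4 protoplasts, beside -0.02 and -0.01 over all genes tested. By groups that did not overlap, 38 genes were lower in EV and 38 in TGA4 protoplasts, where the share over all genes was 28% and 27.8%. Scaled by total counts alone, the median of all genes moved to -0.30 in EV and -0.34 in TGA4 protoplasts, and that of the 43 genes to -0.91 and -0.97, so that the distance between them stayed at -0.61 in EV and -0.63 in TGA4 protoplasts.

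RPT3, the ATPase subunit with the most CHX-sensitive transcript in EV protoplasts, had 222, 218 and 202 CPM in EV with CHX, against 487, 468 and 562 CPM in EV without it. In TGA4 protoplasts RPT3 had 207, 183 and 201 CPM with CHX, against 460, 430 and 492 CPM without it. No treated library came near an untreated one, and the log2 fold change was -1.24 ± 0.11 (SE, edgeR adjusted p = 1.66e-09) in EV and -1.23 ± 0.11 (adjusted p = 2.92e-09) in TGA4 protoplasts. RPT2a, another ATPase of the ring, had 149, 140 and 135 CPM in EV with CHX, against 238, 248 and 285 CPM in EV without it, a log2 fold change of -0.86 ± 0.11. In TGA4 protoplasts the RPT2a change was -1.04 ± 0.12. Its sister gene RPT2b did not follow. It had 36.7, 40.6 and 46.3 CPM in EV with CHX, against 36.2, 38.8 and 40.8 CPM in EV without it, and the groups overlapped (log2 fold change 0.08 ± 0.17, adjusted p = 0.718 by edgeR). In TGA4 protoplasts RPT2b had 28.3, 47.8 and 52.4 CPM with CHX, against 39.3, 38.9 and 33.7 CPM without it, again with overlap.

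The start regions of these ATPase genes are shown because RPT3 and RPT2a fell with CHX and RPT2b was not called, together with that of the catalytic gene PBA1. Each line is the 250 bases before the annotated gene start from RefSeq (TAIR10.1, whose nuclear chromosomes are those of TAIR10), 5′ to 3′ on the gene's strand, which is the plus strand in each: RPT3 at chr5:23568802-23569051, RPT2a at chr4:14312033-14312282, RPT2b at chr2:8692317-8692566 and PBA1 at chr4:15188494-15188743. Capitals mark TGGGC on either strand, so that GCCCA is the same word read from the other side.
RPT3: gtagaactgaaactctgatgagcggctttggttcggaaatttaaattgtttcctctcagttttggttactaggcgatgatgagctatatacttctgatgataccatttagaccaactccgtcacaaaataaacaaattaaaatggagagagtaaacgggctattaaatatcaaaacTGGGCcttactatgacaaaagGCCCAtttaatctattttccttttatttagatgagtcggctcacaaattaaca
RPT2a: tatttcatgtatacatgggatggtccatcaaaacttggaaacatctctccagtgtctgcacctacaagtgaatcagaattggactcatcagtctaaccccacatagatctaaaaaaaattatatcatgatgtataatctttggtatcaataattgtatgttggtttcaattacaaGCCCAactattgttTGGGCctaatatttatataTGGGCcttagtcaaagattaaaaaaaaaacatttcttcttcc
RPT2b: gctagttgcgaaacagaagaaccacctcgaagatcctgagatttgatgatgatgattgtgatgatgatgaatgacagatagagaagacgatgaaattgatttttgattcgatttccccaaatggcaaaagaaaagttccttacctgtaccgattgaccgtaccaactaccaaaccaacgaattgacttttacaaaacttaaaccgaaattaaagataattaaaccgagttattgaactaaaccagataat
PBA1: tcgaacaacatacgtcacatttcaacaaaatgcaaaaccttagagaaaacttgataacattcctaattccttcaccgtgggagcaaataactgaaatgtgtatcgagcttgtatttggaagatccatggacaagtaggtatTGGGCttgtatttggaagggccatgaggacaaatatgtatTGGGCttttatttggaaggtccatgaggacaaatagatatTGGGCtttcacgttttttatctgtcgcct
TGGGC is the core of a site that TCP transcription factors are known to bind. It occurred 74 and 53 bases before the start of RPT3 and 75, 61 and 42 bases before that of RPT2a. In PBA1 it recurred at 109, 69 and 29 bases before the start, and RPT2b had its single match 43 bases after the start, outside the bases shown. In windows from 250 bases before to 50 bases after the start, searched on both strands, TGGGC was present in 23 of the 43 genes (53.5%), beside 26% of 27443 protein-coding genes. It was found in 8 of 10 PB, 5 of 11 PA, 5 of 10 RPT and 5 of 12 RPN genes. TGACGT, a word that TGA factors are known to bind, was present in 3 of 43 (6.98%; PBA1, RPT1A and RPN8A), beside 9.19% of all protein-coding genes. The word did not separate the genes by CHX call. PAA2, PAB1, RPN10 and AT5G23540 fell with CHX in both vectors and had no TGGGC in the window. Of the genes called in neither vector, RPT2b and RPT5B had a match, and AT1G79210 and RPN13 had none. A relation between the word and the CHX response was not tested. A match is a description of the letters and not a site in use.

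Every beta-type gene fell with CHX, 10 of 10 in EV and 10 of 10 in TGA4 protoplasts. PBA1, the beta1 protease, had 106, 106 and 112 CPM in EV with CHX, against 159, 138 and 166 CPM in EV without it (log2 fold change -0.51 ± 0.11, and -0.45 ± 0.11 in TGA4). PBE1, the beta5 protease, had 79.7, 99.5 and 94.6 CPM in EV with CHX, against 133, 142 and 145 CPM without it (-0.62 ± 0.11, and -0.82 ± 0.11 in TGA4). The beta2 genes PBB1 and PBB2 fell by 0.76 and 0.63 on the log2 scale in EV, and by 0.75 and 0.92 in TGA4 protoplasts. The steepest beta-type changes were those of PBD2 in EV (-1.01 ± 0.13) and of PBD1 in TGA4 protoplasts (-1.03 ± 0.15), copies of a structural beta subunit.

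Of the 11 alpha-type genes 9 fell in EV and 10 in TGA4 protoplasts. Both counts include PAF2, which averaged 28.4 ± 0.8 CPM with CHX and 45.2 ± 4.0 CPM without it in EV (SD, n = 3 each). Its exons overlap those of another gene, and the caution given below for PAF2 holds here too. PAA2 had 65.6, 78.8 and 58.0 CPM in EV with CHX, against 116, 126 and 139 CPM in EV without it, and 50.7, 52.2 and 45.9 CPM in TGA4 with CHX, against 115, 121 and 139 CPM in TGA4 without it. The groups were far apart in both vectors, with log2 fold changes of -0.91 ± 0.12 and -1.33 ± 0.13. PAF1 (-0.91 in EV, -1.23 in TGA4), PAB1 (-0.97 and -0.90) and PAC1 (-0.90 and -0.67) moved in the same range. AT1G79210, the near copy of PAB1, was called in neither: it had 42.1, 30.9 and 39.2 CPM in EV with CHX, against 33.7, 42.8 and 46.8 CPM in EV without it. PAE2 was not called in EV (-0.22 ± 0.19) and passed in TGA4 with overlapping groups (-0.51 ± 0.20, edgeR adjusted p = 0.0477).

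In the regulatory particle 8 of 10 RPT genes fell in each vector, with RPT2b and RPT5B as the exceptions. RPT5B had 50.3, 61.6 and 53.7 CPM in EV with CHX, against 60.3, 48.1 and 57.2 CPM in EV without it, and its partner RPT5A fell (-0.44 ± 0.11 in EV, -0.37 ± 0.11 in TGA4). Of the 12 RPN genes 11 fell in EV and 9 in TGA4 protoplasts. RPN10, a ubiquitin receptor, had 151, 161 and 154 CPM in EV with CHX, against 228, 288 and 267 CPM in EV without it (-0.75 ± 0.10, and -0.76 ± 0.11 in TGA4). AT5G23540, annotated as a Mov34/MPN/PAD-1 protein, the family of the deubiquitylating lid subunit, fell by 0.78 in EV and 0.67 in TGA4. RPN13, the other ubiquitin receptor, did not pass (-0.30 ± 0.15 and -0.31 ± 0.16), and RPN8A and the PCI-domain gene AT5G45620 passed in EV only, without a call for the difference between vectors.

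**Figure D2:**
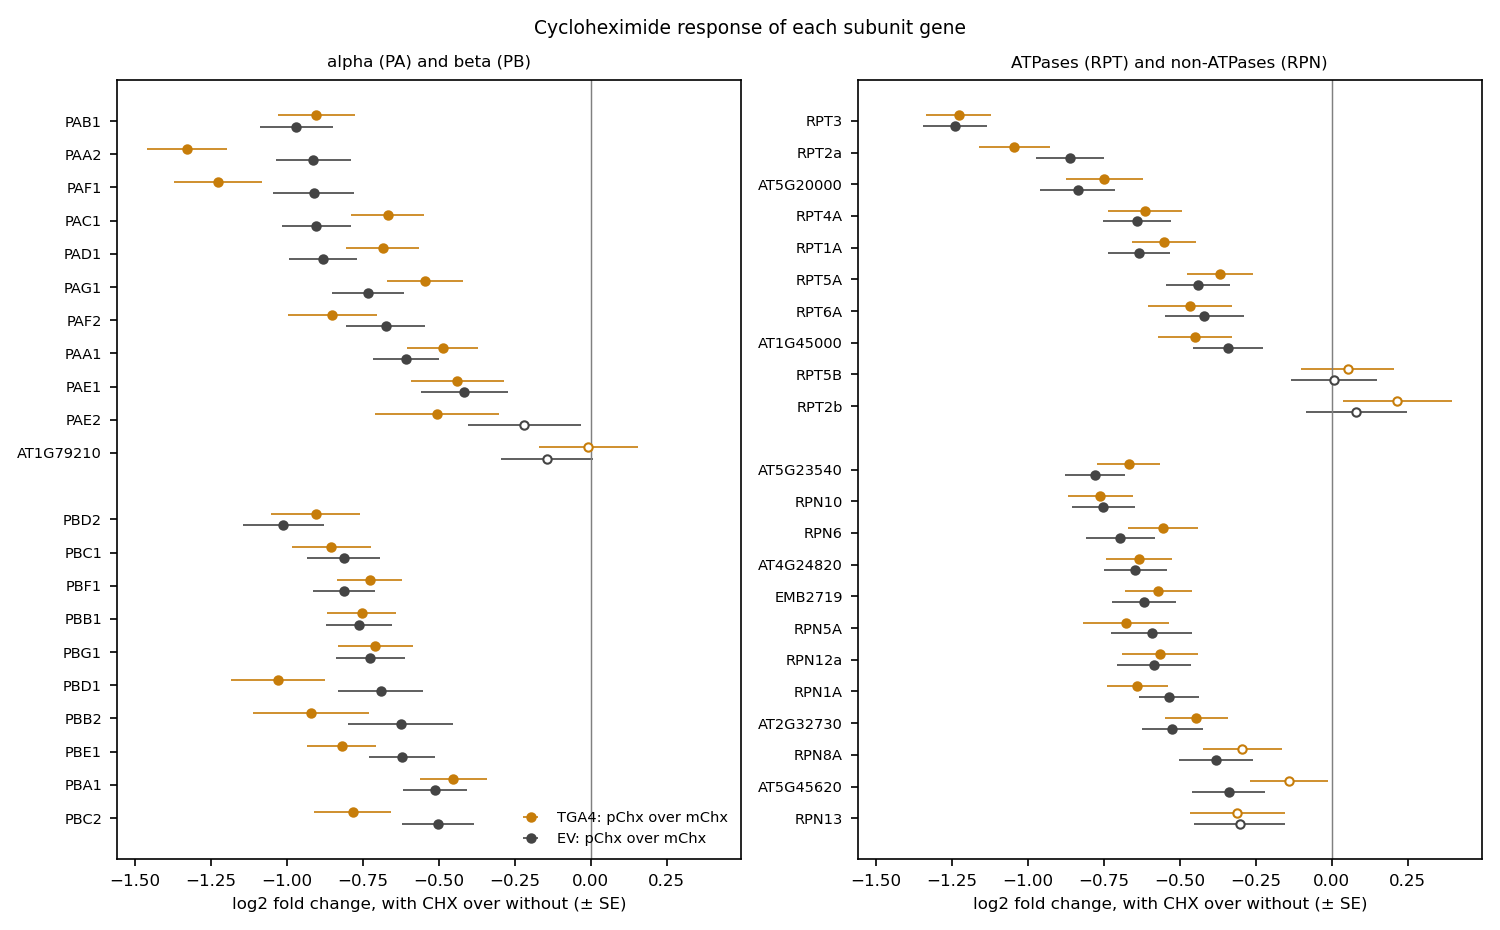
Log2 fold change with over without CHX for each of the 43 genes, in EV and in TGA4 protoplasts (n = 3 each), with bars of ± 1 SE. Filled circles passed the test and open circles did not. Most genes lie between -0.4 and -1.2, with RPT3 at -1.24 and -1.23, and RPT2b, RPT5B, AT1G79210 and RPN13 open in both vectors.

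In each pathway list but that of the regulators, more genes fell than rose with CHX, where 24.5% (EV) and 22.6% (TGA4) of all genes tested were called lower. Of the 7 ubiquitin and E1 genes 6 fell in EV and 7 in TGA4, led by the polyubiquitin genes UBQ14 (-1.53 ± 0.12 and -1.47 ± 0.13) and UBQ10 (-0.92 ± 0.11 and -0.80 ± 0.11), whose repeats may share reads. Of 10 shuttle and segregase genes 6 fell in each vector, among them CDC48A, an AAA ATPase that extracts ubiquitylated proteins (-0.97 ± 0.10 and -1.04 ± 0.10). Of 9 tested assembly factors and activators 5 fell in EV and 6 in TGA4, and of 10 COP9 signalosome genes 6 fell in each. Of 7 second copies of subunits outside the set 4 fell and 1 rose in EV, and 5 fell and 1 rose in TGA4. The one that rose was RPN12b, at 7.04, 12.2 and 12.4 CPM in EV with CHX, against 0.321, 3.70 and 0.742 CPM in EV without it. NAC053, one of the paired NAC factors that drive proteasome gene expression under proteasome stress, rose (0.36 ± 0.09 in EV, 0.38 ± 0.09 in TGA4) and its partner NAC078 was not called (-0.05 ± 0.12 and 0.12 ± 0.12).

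Few of these genes passed the test between TGA4 and EV protoplasts. Without CHX 2 of 43 were lower in TGA4 than in EV, where 5.88% of all genes were called, with 12 at an unadjusted p under 0.05. The median log2 fold change of the 43 genes was -0.13 without CHX and -0.14 with it, beside -0.02 and 0.00 over all genes, and 4 and 6 of the 43 values were above 0. The 2 genes called lower without CHX were the alpha subunit gene PAA1, at 89.5, 89.7 and 93.8 CPM in TGA4, against 119, 108 and 131 CPM in EV (-0.39 ± 0.11, edgeR adjusted p = 0.0399), and the beta subunit gene PBG1, at 92.5, 78.9 and 92.0 CPM in TGA4, against 118, 103 and 130 CPM in EV (-0.41 ± 0.12, adjusted p = 0.0381). Neither call is firm: none of the 43 passed when scaled by total counts alone, or without replicate 3 of EV or any single replicate of TGA4, 1 passed without replicate 1 of EV and 3 without replicate 2 of EV. With CHX none of 43 was called (1.92% of all genes), with 8 at an unadjusted p under 0.05. The difference of the CHX response between TGA4 and EV was called for none of 43 (0.129% of all genes), with 1 at an unadjusted p under 0.05.

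Relative to their TMM-adjusted library totals, protoplasts held fewer proteasome transcripts than roots, with lower medians in the core than in the regulatory particle. At 0N 39 of 43 genes were lower and 3 higher in protoplasts, where 86.4% of all genes tested were called and 46% were called lower. At 60N 37 were lower and 3 higher, where 85.3% were called and 44.5% were called lower. The median log2 fold change of the 43 genes was -1.10 at 0N and -0.88 at 60N, beside -0.15 and -0.12 over all genes, and 37 genes were lower at both nitrogen levels. By groups that did not overlap, 39 genes were lower at 0N and 35 at 60N, where the share over all genes was 44.4% and 41.9%. In bulk RNA, fewer cells of a type and less RNA per cell cannot be told apart.

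The 21 core genes were lower without exception at both nitrogen levels, with medians of -1.45 at 0N and -1.28 at 60N. Their sum was 667 ± 25.6 CPM in protoplasts and 1837 ± 57.5 CPM in roots at 0N (SD, n = 4 each). PAF1, an alpha subunit gene, had 27.7, 25.2, 24.9 and 24.7 CPM in protoplasts at 0N, against 110, 112, 112 and 110 CPM in roots at 0N. All protoplast libraries lay far below all root libraries, and the log2 fold change was -2.12 ± 0.08 (edgeR adjusted p = 2.98e-16) at 0N and -2.05 ± 0.08 at 60N. PBE1, the beta5 protease, had 46.8, 36.8, 41.7 and 47.7 CPM in protoplasts at 0N, against 139, 141, 140 and 129 CPM in roots at 0N (-1.66 ± 0.09, and -1.47 ± 0.09 at 60N). The gate subunits PAC1 (-1.83 and -1.52) and PAG1 (-1.74 and -1.29) and the structural beta subunits PBD2 (-1.83 and -1.69) and PBD1 (-1.45 and -1.47) were of the same order, as was the PAB1 copy AT1G79210 (-1.64 and -1.57). The other catalytic genes were PBA1 (-1.03 and -0.92), PBB1 (-1.31 and -1.22) and PBB2 (-1.33 and -1.11).

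PAF2 needs a caution. It was called lower at -2.08 ± 0.27 at 0N and -0.89 ± 0.26 at 60N, at 0.99 to 3.18 CPM in protoplasts at 0N, against 8.12 to 10.2 CPM in roots at 0N. Its exons overlap those of the mitochondrial complex I gene GAMMA CA2 on the opposite strand over 805 nt, 65.1% of the PAF2 exons, and the counting is not stated to use strand. GAMMA CA2 averaged 26.7 ± 2.5 CPM in protoplasts and 149.0 ± 3.3 CPM in roots at 0N (SD, n = 4 each). In the CHX experiment GAMMA CA2 averaged 77.8 ± 5.1 CPM with CHX and 115.3 ± 6.1 CPM without it in EV (SD, n = 3 each). PAF2 made up 40.4 ± 2.3% and 36.6 ± 1.8% of the summed CPM per kb of PAF1 and PAF2 in these groups. In protoplasts of the third experiment at 0N it made up 7.5 ± 3.2% (SD, n = 4). In EV at 0N of the N-dose experiment, with CHX, it made up 11.6 ± 1.4% (SD, n = 3). The part of this overlap in the PAF2 values was not tested in any experiment.

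The 22 regulatory-particle genes had medians of -0.68 at 0N and -0.39 at 60N, and their sum was 1587 ± 49.4 CPM in protoplasts and 2441 ± 67.3 CPM in roots at 0N (SD, n = 4 each). RPN8A (-1.40 and -1.15), AT4G24820, the Rpn7 gene (-1.29 and -1.15), and RPN5A (-1.21 and -0.88), all of the lid, were the lowest. RPN10 had 98.9, 82.5, 88.3 and 86.0 CPM in protoplasts at 0N, against 148, 146, 157 and 135 CPM in roots at 0N (-0.72 ± 0.08, and -0.39 ± 0.08 at 60N). AT5G23540 stood at -0.88 ± 0.08 at 0N and -0.69 ± 0.08 at 60N. RPT3, the lowest with CHX in EV, was at -0.55 ± 0.09 at 0N and -0.48 ± 0.09 at 60N. RPT2a and RPN6, lower at 0N, were not called at 60N, with log2 fold changes of -0.17 ± 0.08 and -0.12 ± 0.08.

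The genes on the other side were ATPase copies and RPN13. RPT5B had 34.1, 36.1, 38.3 and 37.0 CPM in protoplasts at 0N, against 24.8, 24.8, 24.1 and 26.7 CPM in roots at 0N, with no overlap (0.54 ± 0.10 at 0N, 0.85 ± 0.10 at 60N). AT5G20000, the near copy of RPT6A, had 77.5, 75.9, 74.0 and 77.4 CPM in protoplasts at 0N, against 50.6, 56.2, 64.3 and 48.0 CPM in roots at 0N (0.48 ± 0.11, and 0.85 ± 0.11 at 60N). Both were higher on the TMM scale, and neither was called higher with total counts alone. Scaled by total counts alone, the median of all genes moved to -1.10 at 0N and -0.95 at 60N and that of the 43 genes to -2.05 and -1.71, and RPT5B and AT5G20000 then stood at -0.42 and -0.48 at 0N, below the roots in value and above the median gene. RPN13 was higher at 0N (0.20 ± 0.07, but -0.76 by total counts) and not called at 60N (0.07 ± 0.07). RPN1A, the large scaffold subunit, was not called at 0N (-0.12 ± 0.08) and higher at 60N (0.32 ± 0.08, but -0.51 by total counts).

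**Figure D3:**
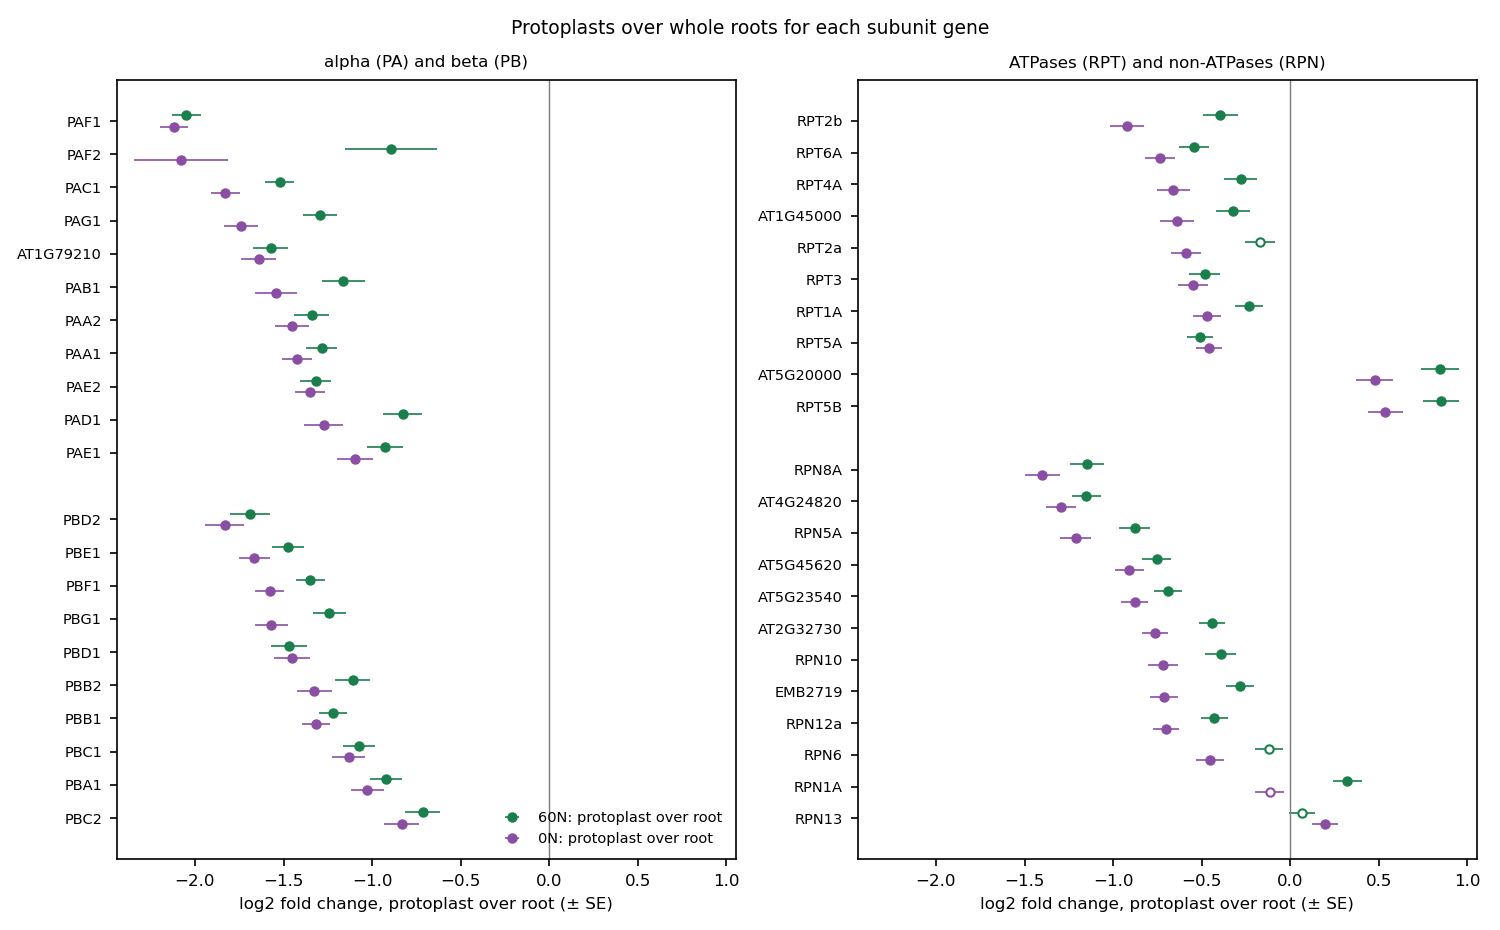
Log2 fold change in protoplasts over roots for each of the 43 genes at 0N and at 60N (n = 4 each), with bars of ± 1 SE, on the TMM scale. Filled circles passed the test and open circles did not. The 21 core genes lie between -2.12 and -0.71, whereas RPT5B, AT5G20000, RPN13 (0N) and RPN1A (60N) lie above 0, where total-count scaling puts the 0N values of RPT5B, AT5G20000 and RPN13 and the 60N value of RPN1A below 0.

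Transcript length moved with the protoplast comparison. Exon lengths were 872 to 1556 nt in the core genes and 1334 to 3517 nt in the regulatory-particle genes. Across all genes tested, Spearman's rho between exon length and log2 fold change was 0.18 at 0N and 0.21 at 60N, and over the 43 genes it was 0.63 at 0N and 0.65 at 60N. Among genes under 1500 nt the median was -0.76 at 0N over all genes, -1.45 over the 19 core genes and -0.79 over the 2 regulatory-particle genes of that length. Among genes from 1500 to under 2000 nt it was -0.21 over all genes, -1.56 over the 2 core genes and -0.65 over the 14 regulatory-particle genes. Genes are not independent replicates, all these values share the same libraries, and the part of length in the difference between core and regulatory particle was not tested further. In the CHX comparisons rho over all genes was 0.04 in EV and 0.01 in TGA4. Over the 43 genes it was 0.19 in EV and 0.26 in TGA4.

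Cell-type markers were compared as well. Of 10 root markers 7 were lower and 2 higher in protoplasts at each nitrogen level. Over all genes tested 86.4% were called at 0N and 85.3% at 60N, so the number of markers called is near that share. The 10 root markers summed to 136 to 152 CPM in protoplasts at 0N and 202 to 237 CPM in roots at 0N, and to 127 to 156 CPM in protoplasts at 60N and 218 to 285 CPM in roots at 60N. None of the 10 was at 0 throughout a group. The 3 shoot markers were lower in protoplasts as well, at up to 0.903 CPM summed at 0N, against 4.36 to 55.2 CPM in roots at 0N. In the other comparisons fewer of the 10 moved. In roots at 60N over 0N 2 were higher and 1 lower (43.2% of all genes called). With CHX 1 was higher in EV (48.1%), and 1 was higher and 2 lower in TGA4 (45.9%). In TGA4 over EV 2 were lower without CHX (5.88%) and 2 with it (1.92%). The endodermis markers summed to 28.5 to 41.8 CPM in TGA4, against 62.0 to 66.8 CPM in EV without CHX, and to 19.5 to 29.8 CPM in TGA4, against 47.7 to 56.8 CPM in EV with it. The part of cell composition in the proteasome values was not tested.

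Some pairs of near copies divided their output differently between groups of libraries. The share of the second copy was taken from the summed CPM per kb of a pair. RPT5B made up 24.9 ± 1.1% of the RPT5 pair in protoplasts and 14.2 ± 0.3% in roots at 0N, and 26.6 ± 2.1% in protoplasts and 12.4 ± 0.8% in roots at 60N (SD, n = 4 each). AT5G20000 made up 66.0 ± 0.9% of the RPT6 pair in protoplasts and 45.4 ± 2.9% in roots at 0N, and 65.5 ± 4.7% in protoplasts and 42.3 ± 2.1% in roots at 60N (SD, n = 4 each). With CHX, RPT2b made up 21.1 ± 2.7% of the RPT2 pair in EV, against 12.2 ± 0.5% without it, and 23.8 ± 7.0% in TGA4, against 11.8 ± 1.7% without it (SD, n = 3 each). AT1G79210 made up 43.9 ± 4.4% of the PAB pair in EV with CHX, against 30.6 ± 4.2% without it, and 45.7 ± 2.3% in TGA4, against 31.3 ± 2.3% without it (SD, n = 3 each). In protoplasts of the third experiment, which had no CHX, the shares were not those of the mChx groups. RPT2b made up 25.1 ± 2.3% at 0N and 24.1 ± 1.6% at 60N there (SD, n = 4 each). AT1G79210 made up 48.6 ± 7.1% and 45.8 ± 4.3%. In the N-dose experiment, where every library had CHX, RPT2b made up 28.6 ± 2.9% in EV at 0N (SD, n = 3). AT1G79210 made up 47.9 ± 4.2% there. At 5N and 60N the EV means were 33.9% and 28.1% for RPT2b, and 48.9% and 47.1% for AT1G79210. The share without CHX thus differed between experiments, as did that of RPT2b in EV with CHX, and the cause was not tested. A share does not depend on the library scaling. The differences between shares were not tested beyond the overlap of libraries: of 11 pairs, 7 in EV and 6 in TGA4 had shares that did not overlap between CHX groups, and 4 at 0N and 5 at 60N between protoplasts and roots. The PAF pair, with the uncertain PAF2 counts, was among them in EV, in TGA4 and at 60N. Shares were not taken for gene pairs outside the set, so these counts have no background share beside them.

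**Figure D4:**
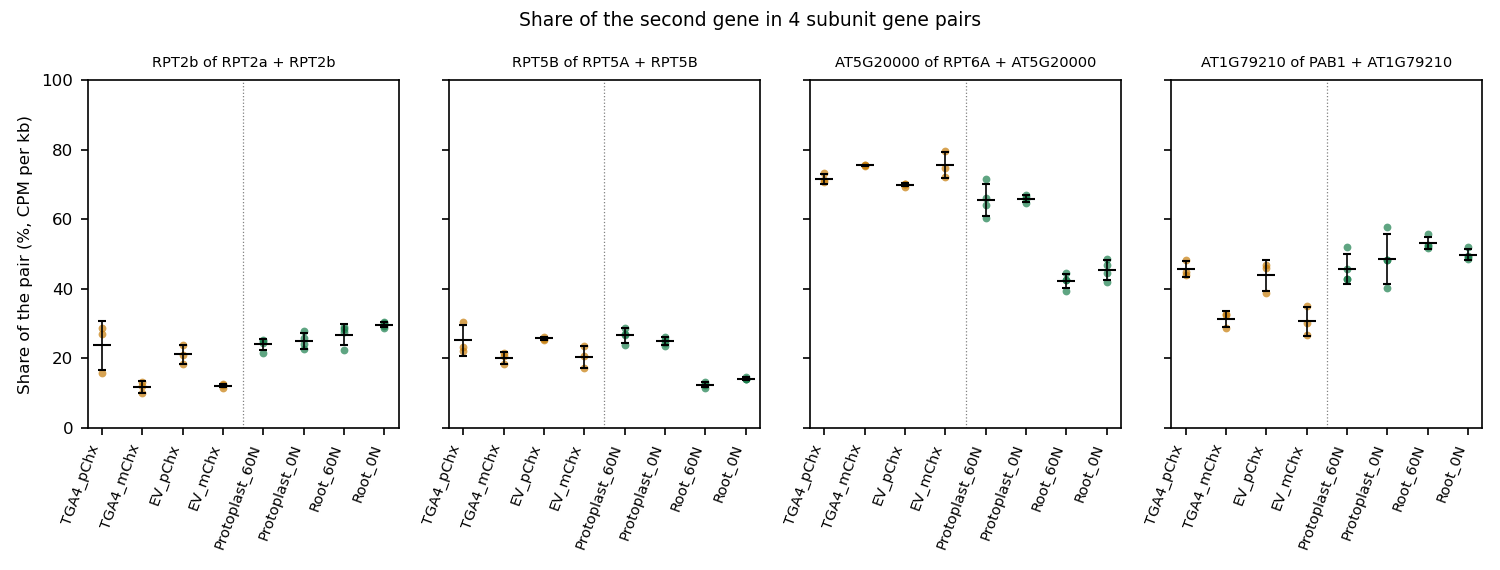
Share of the second gene in the summed CPM per kb of the RPT2, RPT5, RPT6 and PAB pairs, in each library of the CHX experiment (orange) and the protoplast and root experiment (green), by group. Points are libraries and bars are group means ± SD. The AT5G20000 share of the RPT6 pair is near 66% in protoplasts and near 45% in roots at 0N. The RPT2b share is near 21% with CHX and 12% without it in EV of the CHX experiment, and near 25% in protoplasts at 0N without CHX.

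Coding sequences of paired copies were 80.7% (RPT5) to 94.4% (RPT6) identical, 89.6% for RPT2 and 89.1% for PAB, with an identical run of up to 104 nt in the RPT6 pair. How reads common to both copies were counted is not given in the sources used here, so the split within the RPT6 pair is the least certain. The sum of a pair is not affected by such a split, provided shared reads were kept.

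Around the subunits, the pathway genes were divided between the materials, in comparisons where 86.4% (0N) and 85.3% (60N) of all genes were called. NAC053 had 208, 201, 210 and 205 CPM in protoplasts at 0N, against 38.9, 41.0, 53.5 and 45.4 CPM in roots at 0N (2.20 ± 0.12, and 1.86 ± 0.12 at 60N). NAC078 was higher as well (1.74 ± 0.08 and 1.67 ± 0.08), so both regulators were high in the material where 39 of 43 subunit genes were low. RPN12b, the second RPN12 copy, had 30.8, 26.2, 26.2 and 26.9 CPM in protoplasts at 0N, against 0.128 to 0.404 CPM in roots at 0N. Of the 7 second copies outside the set 4 were higher and 3 lower in protoplasts at 0N, and 4 higher and 2 lower at 60N. Of 10 shuttle and segregase genes 7 were higher and 2 lower at both levels, among them the CDC48 family member CDC48B (2.24 ± 0.12 at 60N) and the shuttle DDI1 (1.34 ± 0.09 and 1.73 ± 0.09). Of 10 COP9 signalosome genes 4 were higher and 1 lower at 0N, and 6 higher and 2 lower at 60N, with CSN1 at 1.27 ± 0.08 and 1.46 ± 0.08. Of 7 ubiquitin and E1 genes 3 were higher and 3 lower at both levels. Of 8 tested assembly factors and activators 2 were higher and 3 lower at 0N, and 4 higher and 2 lower at 60N. The core assembly chaperone UMP1a (-2.47 ± 0.12 and -2.20 ± 0.13) and DSS1-I, which encodes a small lid-associated protein (-3.09 ± 0.12 and -3.18 ± 0.12), were lower at both. Higher calls in these lists depend in part on the scaling: with total counts alone, the 0N values of CSN6B (-0.034), CDC48C (-0.25), CSN3 (-0.28), UBQ4 (-0.34) and UBA1 (-0.42) were below 0.

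A part of the set was lower in roots given nitrogen. At 60N 15 of 43 genes were lower than at 0N and none higher, where 43.2% of all genes were called and 25.7% were called lower. Their share, 15 of 43, stands beside that background, and the median of the 43 genes was -0.17, beside -0.09 over all genes. RPT2b had 35.3, 48.8, 47.7 and 45.3 CPM in roots at 60N, against 66.2, 63.2, 65.1 and 60.4 CPM in roots at 0N (-0.52 ± 0.09, edgeR adjusted p = 0.000125). RPN1A had 99.7, 107, 99.0 and 106 CPM in roots at 60N, against 138, 148, 134 and 116 CPM in roots at 0N (-0.38 ± 0.08, edgeR adjusted p = 0.000821). RPT2a had 113, 113, 115 and 102 CPM in roots at 60N, against 141, 144, 144 and 126 CPM in roots at 0N (-0.33 ± 0.08). The alpha subunit gene PAD1 (-0.40 ± 0.11), the ATPase gene RPT4A (-0.30 ± 0.09) and the PCI-domain lid gene EMB2719 (-0.30 ± 0.08) completed the 6 lowest among the called genes, and PAF2 (-0.53 ± 0.22) was not called. The calls were 5 RPT, 6 RPN, 2 PA and 2 PB genes. Catalytic genes were not among them, with values between -0.21 ± 0.09 (PBB2) and -0.09 ± 0.09 (PBA1), whereas RPN10 was (-0.22 ± 0.08), and AT5G23540 was not (-0.07 ± 0.08). The count was 4 without the filter on low counts. It was 7 without replicate 1 and 8 without replicate 4 of roots at 60N, and 9, 8 and 7 without replicate 1, 2 or 3 of roots at 0N.

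Among pathway genes in roots, UBQ10 (0.70 ± 0.11), UBQ3 (0.47 ± 0.14) and NAC053 (0.35 ± 0.12) rose at 60N. The segregase CDC48B (-0.46 ± 0.11) and COP9 subunit CSN6B (-0.48 ± 0.13) fell, and 4 of 10 shuttle genes, 4 of 10 COP9 genes, 3 of 8 tested assembly factors and 3 of 7 second copies were lower. Of the 7 ubiquitin and E1 genes 3 rose and 2 fell. Over all genes tested 43.2% were called in this comparison and 25.7% were called lower. These lists hold few genes, and no list was tested as a set.

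In protoplasts none of the 43 genes was called between 60N and 0N, where 2.41% of all genes were called, and 1 had an unadjusted p under 0.05. Members lay between -0.14 (PBC1) and 0.65 (PAF2), with a median of 0.08. None of the pathway genes was called. The nitrogen response differed between protoplasts and roots for 10 of 43 genes, all with a positive difference, where 24.4% of all genes were called. The count of members is near that share. The median difference was 0.23 over the 43 genes and also above 0, at 0.09, over all genes. RPN1A differed by 0.44 ± 0.12 (edgeR adjusted p = 0.00857), EMB2719 by 0.43 ± 0.11 and RPT2b by 0.53 ± 0.14 (adjusted p = 0.0078). This count is unstable. It was 2 without the filter on low counts, 6 in edgeR with RLE scaling and 22 with scaling by total counts alone. DESeq2 kept 8 of the 10 calls. Without any single protoplast library it was 0 to 3 (0 without replicate 4 at 0N), and it was 6 without replicate 1 of roots at 60N and 5 without replicate 2 of roots at 0N.

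**Figure D5:**
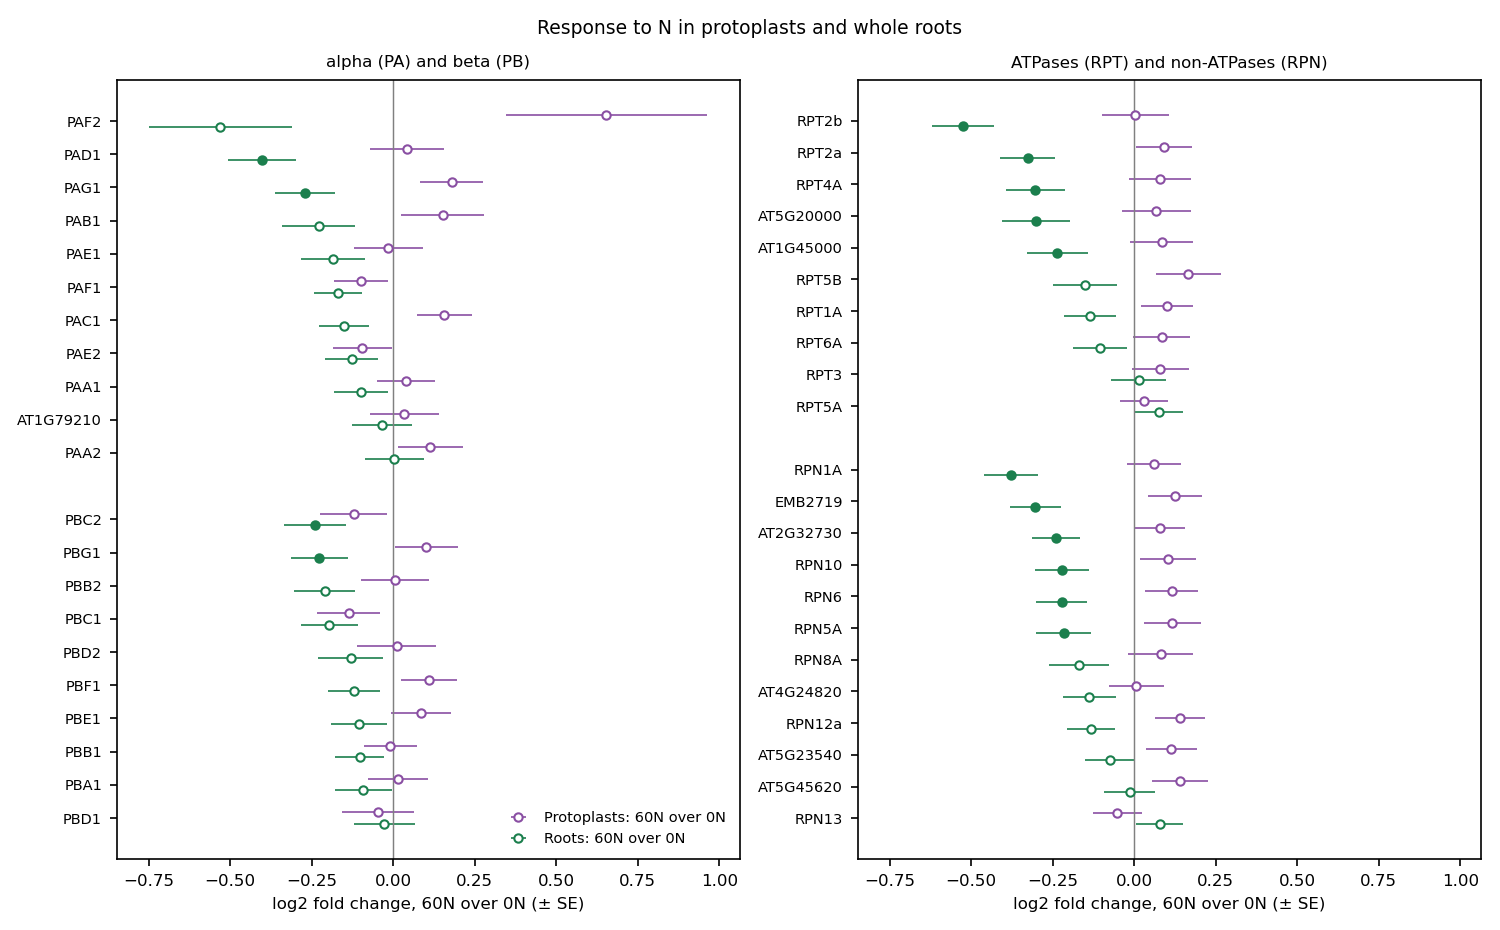
Log2 fold change of 60N over 0N for each of the 43 genes in protoplasts and in roots without CHX (n = 4 each), with bars of ± 1 SE. Filled circles passed the test and open circles did not. In roots 15 genes are filled, all below 0 and down to -0.52, and no gene is filled in protoplasts.

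With CHX present throughout, neither nitrogen dose nor TGA4 gave a call among the 43 genes. For 5N over 0N, none was called in EV (1.59% of all genes) or in TGA4 (0.273%), with 2 members at an unadjusted p under 0.05 in each. For 60N over 0N, none was called in EV (3.59%) or in TGA4 (3.03%), with 0 and 1 members at an unadjusted p under 0.05. For TGA4 over EV, none was called at 0N (8.86%), 5N (7.89%) or 60N (7.74%), with 0, 0 and 1 members at an unadjusted p under 0.05. The test of whether the TGA4 effect depended on nitrogen called no gene at all (0%), with 1 member at an unadjusted p under 0.05. DESeq2 called none of the 43 in any of these 8 comparisons.

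PBA1 averaged 41.7 ± 5.5 CPM in TGA4 and 41.4 ± 5.3 CPM in EV at 0N, 40.2 ± 2.4 CPM in TGA4 and 35.6 ± 7.6 CPM in EV at 5N, and 39.3 ± 0.9 CPM in TGA4 and 38.1 ± 0.9 CPM in EV at 60N (SD, n = 3 each). RPT3, so responsive to CHX in the other experiment, averaged 79.7 ± 11.8 CPM in TGA4 and 77.5 ± 7.5 CPM in EV at 0N, and 72.5 ± 5.6 CPM in TGA4 and 73.7 ± 0.7 CPM in EV at 60N. The median standard error over the 43 genes was 0.13 on the log2 scale in each comparison. TGA4 over EV ranged from -0.20 (PAF2) to 0.19 (PBD1) at 0N, from -0.26 (RPT2b) to 0.54 (PAF2) at 5N and from -0.96 (PAF2) to 0.22 (RPT6A) at 60N. EV at 5N, replicate 3, had 366 CPM over the core genes, against 488.9 to 595.7 CPM in the other 17 libraries, and no call arose when it was left out. Among pathway genes, NAC053 was higher in TGA4 at 5N (0.46 ± 0.12) and RPN12b lower in TGA4 at 60N (-0.54 ± 0.13).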

How the data were processed

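RNA-seq counts per gene were taken as deposited, from 46 tables of 1 library each. Per the methods and the submitters' processing notes, the authors aligned reads to TAIR10 with TopHat2, counted them with GenomicFeatures and GenomicAlignments and tested with DESeq2, and whether counting used strand is not given in the sources used here. The deposited values are whole, unnormalized counts. Depth and its ranges are given with the results, and 3 counts in a library, the limit that a count of 0 allows, equal 0.125 to 1.21 CPM. This limit covers counting error only.

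Libraries were grouped by their labels. The 43 members, the pathway and marker lists and the tests were chosen with earlier results of these data known. Each experiment was fitted alone in edgeR 4.0.16 (R 4.3.3) with TMM scaling, filterByExpr and the quasi-likelihood F-test over all its groups without a block, and p-values were Benjamini-Hochberg adjusted over all genes tested, at a threshold of 0.05. SE was derived from each fold change and its F statistic, as the size of the change over the root of F. Interactions compared the responses directly. The script was tested on simulated data in which few genes changed. That test does not cover comparisons with many calls, such as those of CHX or of protoplasts over roots.

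Named in each comparison were up to 6 called members with the highest and up to 6 with the lowest fold change, both copies of a pair that differed in call or direction with CHX or in protoplasts, the genes PBA1, PBB1, PBB2, PBE1, RPN10 and AT5G23540, and up to 4 called genes of a pathway list. Alternatives were a replicate block, RLE and total-count scaling, no filter, DESeq2 1.42.0, fits of 2 groups and leaving out each library. After the data were seen, counts without PAF2 were added. Same-numbered libraries deviated together in EV at 60N over 0N (correlations of 0.156, 0.242 and 0.178). In TGA4 over EV with CHX the correlations were 0.227, 0.0105 and 0.150. Libraries of different number were not compared, so these values do not show that replicate numbers pair the libraries. Sequences, lengths and overlaps came from RefSeq TAIR10.1, which held all 43 genes. The values of 1 pathway gene are not reported here.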

Additional observations from a re-analysis of the deposited data

Results flagged for a closer look

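Of 176 sets of 4 libraries (each of the 43 genes and their sum, in the groups of protoplasts and roots), 13 had a library far from the other 3, where chance gives about 1 in 20. In protoplasts at 0N these were PAB1 in replicate 2 (16.4 CPM, others 26.9 to 28.6), PAF1 in replicate 1 (27.7, others 24.7 to 25.2), PBB2 in replicate 1 (26.1, others 24.2 to 24.5), PBG1 in replicate 1 (41.3, others 34.9 to 35.3) and PBF1 in replicate 4 (33.3, others 40.4 to 41.1). In protoplasts at 60N they were PAD1 in replicate 3 (40.0 CPM, others 46.0 to 47.0), RPT3 in replicate 1 (137 CPM, others 110 to 114) and RPN12a in replicate 3 (82.2, others 78.1 to 78.8). In roots at 60N they were PAF2 in replicate 3 (4.72 CPM, others 6.41 to 6.68), RPT2a in replicate 4 (102, others 113 to 115) and AT2G32730 in replicate 1 (114, others 121 to 122). In roots at 0N they were RPT2a in replicate 4 (126 CPM, others 141 to 144) and AT5G45620 in replicate 4 (62.8, others 57.4 to 58.3).

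The nitrogen response of protoplasts minus that of roots passed edgeR's test of the difference for 10 of 43 genes, beside 24.4% of all genes tested, all 10 positive on the log2 scale: PAF2 (1.18), RPT2b (0.53), PAG1 (0.45), PAD1 (0.45), RPN1A (0.44), EMB2719 (0.43), RPT2a (0.42), RPT4A (0.38), RPN6 (0.34) and AT2G32730 (0.32). The count is near the share over all genes, whose median difference was also positive, at 0.09. In protoplasts none of these 10 genes passed the test of 60N over 0N, and in roots 9 of the 10 fell at 60N, PAF2 being the exception (-0.53 ± 0.22, edgeR adjusted p = 0.0556).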

How the results depend on the processing

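The part of depth in these calls was not tested. Leaving out 1 library at a time gave 34 to 39 called members for CHX in EV (38 with all libraries), 33 to 38 in TGA4 (37), 41 to 43 for protoplasts over roots at 0N (42), 40 to 41 at 60N (40), 7 to 14 for nitrogen in roots (15), 0 to 14 for the difference of the nitrogen response between tissues (10), 0 to 3 for TGA4 over EV without CHX (2) and 0 in the other comparisons. Without the filter on low counts, 4 members were called for nitrogen in roots, 2 for the tissue difference, 1 for TGA4 over EV without CHX and 1 with CHX. With total counts alone, 22 were called for the tissue difference, 0 for TGA4 over EV without CHX and 1 for TGA4 over EV at 60N. With RLE scaling the tissue difference had 6. Fitted on 2 groups, nitrogen in roots had 7 and TGA4 at 60N over 0N had 1. The cause of these changes was not tested. With the replicate number as a block, calls were 38 for CHX in EV, 38 in TGA4, 11 for nitrogen in roots and 8 for the tissue difference. The block changed no count by over 1.5 times. In EV at 60N over 0N, where same-numbered libraries deviated together, the count stayed at 0. Without PAF2 the tissue difference had 9.

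Of 3994 alternative values for 298 log2 fold changes of single genes, 3695 kept direction and call, 282 lost the call and 17 changed sign, all 17 with total counts alone, a setting that moves the median of all genes itself. In protoplasts over roots at 0N these were RPT5B -0.42, AT5G20000 -0.48, RPN13 -0.76, PA200 -0.23, PTRE1 -0.46, CDC48C -0.25, UBQ4 -0.34, UBA1 -0.42, CSN6B -0.034, CSN3 -0.28 and the endodermis marker SCR -0.23. At 60N they were RPN1A -0.51, RPN1b -0.016, UCH2 -0.47, UBQ11 -0.041, CSN3 -0.072 and SCR -0.46.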
